A study of Mus musculus with 24 samples.

Results

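Hearts of mice carrying the Gly389 form of the human beta1-adrenergic receptor (GLY) were compared with hearts of non-transgenic mice (NTG) of the same age, 90 days. The comparison rests on 12 of the 24 arrays of the series, namely the 6 titled GLY and the 6 titled NTG, and on all 45037 probe sets that are not Affymetrix controls. In the GLY mice a human beta1-Gly389 cDNA was placed under the alpha-myosin heavy chain promoter, which is active in cardiac myocytes. The NTG mice carry no transgene. The other 12 hearts of the series, from mice with a beta1-Arg389 transgene (ARG) and from AC5 transgenic mice (AC5), entered the fit for its estimate of the spread and served to test how far a change differed from theirs. Each genotype had 6 biological replicates, with 1 array per replicate. No source used here gives the sex of the mice or the number of transgenic lines. The comparison asks what the Gly389 receptor alone does to the transcripts of a young adult heart. A second question is which of its changes are found in both replicates 1-3 and replicates 4-6, and which rest on GLY replicates 1 and 3.

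The beta1-adrenergic receptor couples to the stimulatory G protein, which activates adenylyl cyclase. The cAMP that is made activates protein kinase A, which raises the rate and force of the heartbeat through calcium handling and sarcomere proteins. G protein-coupled receptor kinases, beta-arrestins and cAMP phosphodiesterases dampen the signal. The Gly389 form of the human receptor is known to couple to adenylyl cyclase less strongly than the Arg389 form. Heart muscle draws most of its energy from fatty acids, and in part from ketones and branched-chain amino acids, all of which are burnt in mitochondria.

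The deposited values are ratios to the control level, so a log2 ratio of 0 is the level of the NTG hearts. The 6 NTG hearts had between 0 and 19 probe sets more than 2-fold away from that level. GLY 1 had 1646 (3.65%) and GLY 3 had 1741 (3.87%), against 92 to 258 in the other 4 GLY hearts. Over all probe sets the log2 ratios of GLY 1 and GLY 3 correlated at r = 0.79, whereas the other pairs of GLY hearts lay between -0.03 and 0.59. These are descriptions of arrays that share the same control level. The median log2 ratio of an array was 0.09 in GLY 1 and 0.04 in GLY 3, and between -0.03 and 0.02 in the others. The labels do not mark GLY 1 and GLY 3 as different from the other hearts of their group, and counts over all probe sets and over gene lists are therefore given with and without them. The level of the receptor transgene, which would check the labels, is not analysed here. Since a ratio carries no signal level, the tissue could not be checked by the abundance of its markers. Of 10 cardiomyocyte markers 1 fell, titin (Ttn), by 0.41 ± 0.09 on the log2 scale (SE), and it was not called without GLY 1 and 3. Ttn was called at 1 of its 6 probe sets.

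In all, 2286 of 45037 probe sets differed between GLY and NTG (5.08%, limma, Benjamini-Hochberg adjusted p under 0.05). Of these, 696 rose (1.55%) and 1590 fell (3.53%), and they stood for 1570 genes. A change of at least 1.5-fold was seen in 679 of them, 100 up (0.222%) and 579 down (1.29%), 1.51% in all. Without GLY 1 and GLY 3 the count was 1131 (2.51%), with 381 up (0.846%) and 750 down (1.67%). Of the 2286, 891 were called the same way without the pair (1.98% of all tested) and 1395 were not (3.1%). The median size of the first group was 0.53 on the log2 scale and that of the second 0.43. When each set of replicates was fitted alone, 2740 probe sets were called within replicates 1-3 (6.08%; 1.3% up and 4.78% down) and 72 within replicates 4-6 (0.16%; 0.0733% up and 0.0866% down). Of the 2740, 2171 had the same direction in replicates 4-6 (79.2%). The share with the same direction over all probe sets was not counted, so no excess of agreement is shown. After quantile normalization the order of the 2 counts was the opposite, with 32 calls within 1-3 and 71 within 4-6. The 12 arrays of a set gave a median SE of 0.14 within 1-3 and 0.12 within 4-6. Both sets shared 39 calls in the same direction (0.0866% of all tested), 11 up (0.0244%) and 28 down (0.0622%). The 39 are 54.2% of the calls within 4-6 and 1.42% of those within 1-3. The contrast between the 2 sets, tested in 1 fit, gave 0 calls (limma, smallest adjusted p = 0.11), although 6776 probe sets had an unadjusted p under 0.05. The overall count was 1337 without GLY 3 alone, 1355 without NTG 3, 3961 without GLY 6 and 633 after quantile normalization. Leaving out 1 heart moved the count within 1-3 to between 317 (without NTG 3) and 7421 (without GLY 2), and that within 4-6 to between 8 (without GLY 4) and 167 (without GLY 5).

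**Figure D1:**
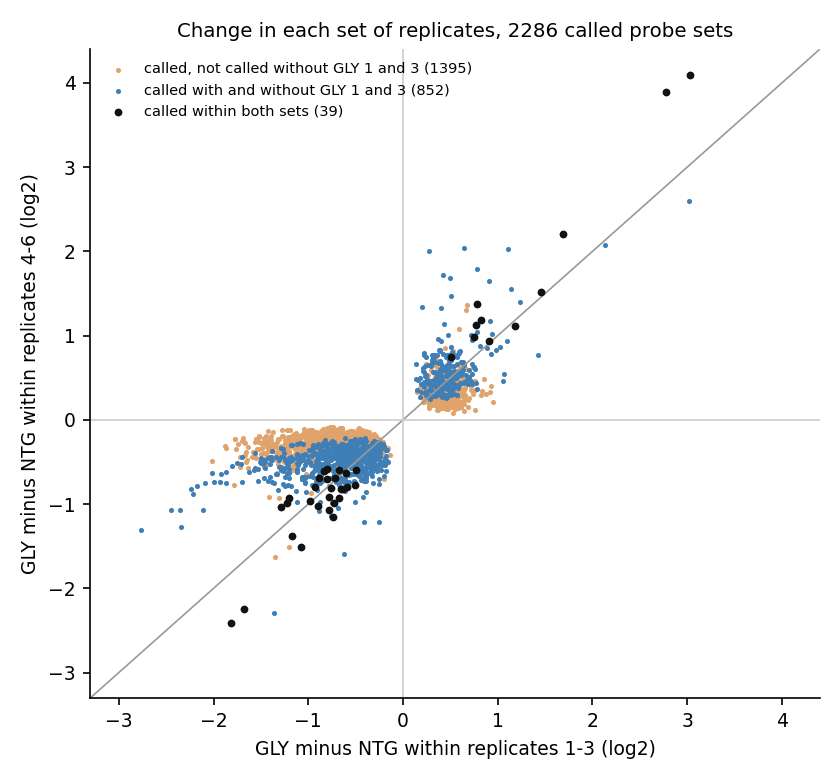
Each point is 1 of the 2286 probe sets called in GLY against NTG, placed by its log2 change within replicates 1-3 (horizontal) and within replicates 4-6 (vertical). The line marks equal change. The 39 black points were called in both sets and lie near the line. Most of the probe sets that were not called without GLY 1 and 3 lie closer to the horizontal axis, with a larger change in replicates 1-3. Both patterns are set in part by the grouping. The black points had to be called in each set, and GLY 1 and 3 belong to replicates 1-3.

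The 39 probe sets called in both sets stood for 31 genes, 23 that fell and 8 that rose, and for 4 probe sets without a symbol. All 39 were also called over all hearts, without GLY 1 and 3 and with any single GLY or NTG heart left out, and 38 were called over all hearts after quantile normalization, all but Xpo6. The within-set fits gave 6 shared calls after that normalization, 8 on GLY and NTG arrays alone and 91 from a fit of both sets together. In 36 of the 39 no GLY heart overlapped an NTG heart, against 2.68% of all probe sets tested (1.07% above and 1.61% below). The 39 were chosen by their calls in these same hearts. Their lack of overlap and their calls with hearts left out are set in part by that choice, and support nothing. Among the 23 genes that fell, 12 encode proteins that work in mitochondria, 6 of them enzymes of amino acid or ketone breakdown. This count was made after the list was seen and carries no test. The share of such products among all genes was not counted, so no excess is shown. In 10 of the 31 genes at least 1 other probe set was not called over all hearts. None of the 8 genes that rose encodes a mitochondrial protein of that kind. Without a share over all genes, this shows no contrast with the falls.

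Of the 12 mitochondrial products, isovaleryl-CoA dehydrogenase (Ivd), an enzyme of leucine breakdown, fell most. At probe set 1449001_at the log2 ratios of GLY 1 to 6 were -1.0, -1.24, -1.19, -1.35, -1.18 and -1.58, and those of NTG 1 to 6 were 0.10, 0.04, -0.08, 0.17, -0.13 and -0.03. Every GLY heart lay far below every NTG heart, and GLY 1 was the least changed. Ivd fell by 1.27 ± 0.12 on the log2 scale (SE; limma, adjusted p = 8.76e-07), by 1.17 within replicates 1-3 and by 1.37 within 4-6. Its other probe set, 1418238_at, fell by 0.85 ± 0.09.

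Acetoacetyl-CoA thiolase (Acat1) acts in isoleucine and ketone breakdown. Its log2 ratios in GLY 1 to 6 were -1.13, -0.88, -1.55, -0.96, -0.92 and -0.98, and those in NTG hearts ran from -0.22 to 0.12. The groups did not overlap, with GLY 3 lowest. Acat1 fell by 1.07 ± 0.11 (adjusted p = 2.12e-06), and by 0.93 without GLY 1 and 3.

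GABA transaminase (Abat), which breaks down the amino acid GABA in the mitochondrial matrix, was more even over the GLY hearts than Ivd or Acat1. At 1433855_at GLY 1 to 6 stood at -0.96, -1.22, -1.14, -0.98, -0.95 and -1.03, and the NTG hearts at 0.05, 0.03, 0.27, 0.16, -0.23 and 0.05. The mean was -1.05 ± 0.11 (SD, n = 6) in GLY and 0.06 ± 0.17 (SD, n = 6) in NTG. Abat fell by 1.10 ± 0.09 (SE), and by 1.10 without GLY 1 and 3 (limma, adjusted p = 1.3e-07 and 6.65e-07). Its other probe set, 1422226_at, changed by 0.06 ± 0.10 and was not called.

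Trap1, the mitochondrial form of the HSP90 chaperone, had ratios of -0.61, -0.74, -0.63, -0.70, -0.69 and -0.60 in GLY 1 to 6, and from -0.03 to 0.15 in NTG. Its spread over the GLY hearts, an SD of 0.06, was the smallest among the falls shared by both sets. It fell by 0.70 ± 0.08 over all hearts, by 0.72 within 1-3 and by 0.69 within 4-6.

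Other mitochondrial products behaved alike. Falls of 0.86 ± 0.09 for Mrps25, a protein of the small mitochondrial ribosomal subunit, and of 0.64 ± 0.09 for Lars2, the mitochondrial leucyl-tRNA synthetase, were called in both sets. Pmpca, a subunit of the peptidase that removes import signals, fell by 0.72 ± 0.07. Among enzymes of amino acid breakdown, ornithine aminotransferase (Oat) fell by 0.69 ± 0.09 and Aldh4a1, of proline breakdown, by 0.74 ± 0.11. Propionyl-CoA carboxylase subunit b (Pccb) fell by 0.69 ± 0.08. The NADP-dependent isocitrate dehydrogenase Idh2 fell by 0.61 ± 0.08, and the D-lactate dehydrogenase Ldhd by 0.86 ± 0.10 and 0.80 ± 0.11 at its 2 probe sets. Mrps25 and Lars2 each had 2 further probe sets and Idh2 had 1, none of them called, with changes from -0.28 to 0.15. Of these 8 genes, Aldh4a1 was the one whose GLY and NTG hearts overlapped: its highest GLY heart, GLY 3 at -0.31, lay just above NTG 3 at -0.32.

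Outside mitochondria, the beta2 subunit of AMP-activated kinase (Prkab2), an energy sensor, fell by 0.78 ± 0.09 at probe set 1435875_at, and its other 2 probe sets fell by 1.00 ± 0.13 and 0.58 ± 0.11. Sestrin 1 (Sesn1), which links amino acid supply to mTORC1, fell by 0.79 ± 0.11, with 1 of its 4 probe sets not called. The G protein beta3 subunit (Gnb3) fell by 0.96 ± 0.11. Its GLY hearts ran from -1.14 to -0.46 and its NTG hearts from -0.11 to 0.31, with GLY 1 nearest to the controls. Arhgap9 fell by 0.97 ± 0.12, Plxnb1, a semaphorin receptor, by 0.92 ± 0.14, with its other probe set not called. Anapc16, a subunit of the anaphase-promoting complex, fell by 1.16 ± 0.11 and 0.75 ± 0.10 at 2 of its 4 probe sets, and the others changed by -0.10 and -0.28 and were not called. Doc2g fell by 0.95 ± 0.12, Xpo6, the nuclear export factor for actin, by 0.64 ± 0.11, and Pank4 by 0.54 ± 0.08. The unnamed probe set 1435605_at fell by 0.72 ± 0.12.

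**Figure D2:**
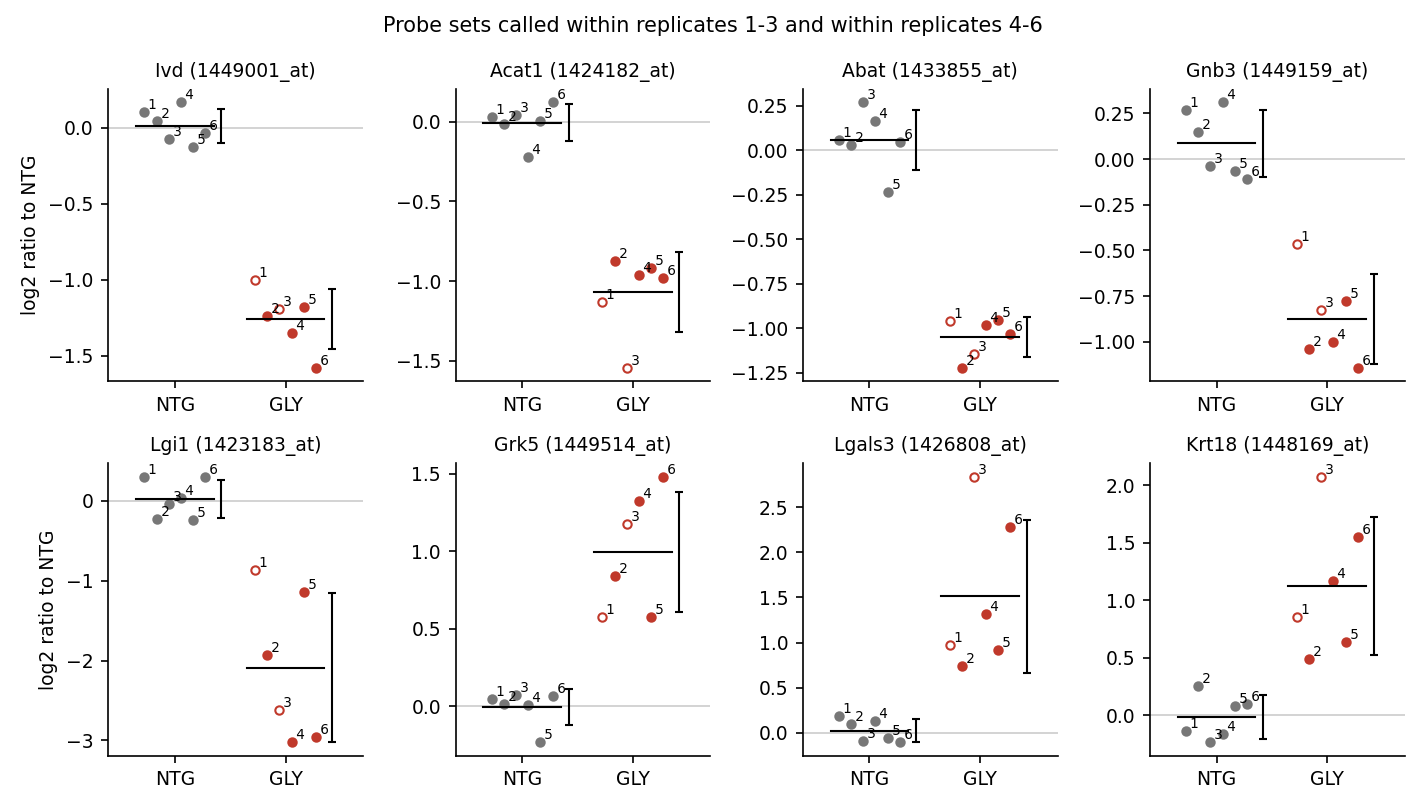
Log2 ratio to the control level in each NTG heart (grey) and GLY heart (red, with GLY 1 and 3 as open circles) for 8 probe sets called within both sets of replicates; numbers are replicates, the horizontal line is the group mean and the bar beside it 1 SD (n = 6). Ivd, Acat1 and Abat are shifted evenly in all 6 GLY hearts, whereas Lgi1, Lgals3 and Krt18 spread widely between GLY hearts and still do not overlap with NTG.

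Promoters of the genes called in both sets, falls and rises, are given as sequence context. Whether the genes share any control was not tested. RefSeq promoters (GRCm38.p6, 250 bases before the start of the gene) were at hand for 27 of the 31 genes. They were searched on both strands for AAGGTCA, the half-site of estrogen-related receptors that regulate mitochondrial genes, for TGACGTCA, the cAMP response element, and for its half-site TGACG, which the full element contains. AAGGTCA was in 1 of the 27 (3.7%), against 4.7% of 27025 genes. TGACGTCA was in 1 (3.7%, against 1.8%) and TGACG in 5 (18.5%, against 19.8%): Bex1, Dusp5, Mrps25, Sesn1 and Trap1. The Trap1 promoter, chr16:4077811-4078060 on the minus strand, is shown because it holds both full motifs, and that of Dusp5, chr19:53528895-53529144 on the plus strand, as the one riser with a half-site. Capitals mark AAGGTCA at -143 and TGACGTCA at -47 in Trap1, and CGTCA, which is TGACG on the other strand, at -55 in Dusp5. A match of letters is not a site in use.
Trap1: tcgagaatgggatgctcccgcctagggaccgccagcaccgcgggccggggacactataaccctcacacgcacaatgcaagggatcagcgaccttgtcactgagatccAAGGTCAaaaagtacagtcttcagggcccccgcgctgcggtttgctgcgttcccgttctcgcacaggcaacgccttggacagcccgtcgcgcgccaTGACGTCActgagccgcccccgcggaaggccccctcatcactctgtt
Dusp5: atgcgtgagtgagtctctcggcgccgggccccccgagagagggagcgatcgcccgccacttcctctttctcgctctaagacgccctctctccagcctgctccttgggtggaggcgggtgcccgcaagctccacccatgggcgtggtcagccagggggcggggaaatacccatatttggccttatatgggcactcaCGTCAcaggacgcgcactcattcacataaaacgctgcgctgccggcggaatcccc

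Among the genes that rose in both sets, Grk5 is closest to the transgene. It encodes a G protein-coupled receptor kinase that phosphorylates active beta-adrenergic receptors. At probe set 1449514_at GLY 1 to 6 stood at 0.57, 0.84, 1.17, 1.33, 0.58 and 1.48 and NTG 1 to 6 at 0.04, 0.01, 0.08, 0.01, -0.23 and 0.06. No hearts overlapped, and GLY 3, 4 and 6 were highest. Grk5 rose by 1.00 ± 0.12 (limma, adjusted p = 2.28e-05) and by 1.06 without GLY 1 and 3. Its second probe set, 1436672_at, rose by 0.79 ± 0.16, and there GLY 1 stood at -0.02, within the NTG range.

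Probe sets without a symbol had large rises as well. At 1439301_at GLY 1 to 6 stood at 1.65, 3.34, 4.24, 4.74, 3.00 and 4.53, and the NTG hearts between -0.62 and 0.56. No hearts overlapped, and GLY 3, 4 and 6 were again highest. The rise was 3.56 ± 0.37 (limma, adjusted p = 2.14e-06). Another unnamed one, 1444693_at, rose by 1.95 ± 0.23, and 1446632_at by 0.95 ± 0.16.

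Galectin 3 (Lgals3), a lectin of macrophages and injured tissue, stood at 0.97, 0.74, 2.84, 1.32, 0.91 and 2.28 in GLY 1 to 6 and between -0.11 and 0.19 in NTG. It rose by 1.49 ± 0.26 (adjusted p = 0.00113), with GLY 3 and GLY 6 highest. The hyaluronan receptor Cd44 rose by 1.08 ± 0.22 at 1434376_at, where GLY 2 at 0.29 lay below NTG 4 at 0.33, and 2 of its 4 probe sets were not called. Keratin 18 (Krt18), an intermediate filament of epithelia, rose by 1.15 ± 0.20. Dusp5, a phosphatase that inactivates ERK, rose by 0.62 ± 0.10, Nudt4 by 0.87 ± 0.11 and Rtl3 by 0.92 ± 0.15. The other Nudt4 probe set, 1418505_at, changed by 0.40 ± 0.18 and was not called.

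Lgi1 and Bex1 fell in both sets, yet unevenly. Lgi1, a secreted protein known from the nervous system, stood at -0.86, -1.93, -2.62, -3.02, -1.13 and -2.96 in GLY 1 to 6 at probe set 1423183_at, with NTG between -0.23 and 0.30. It fell by 2.11 ± 0.29. Bex1 stood at -0.38 in GLY 1, within the NTG range of -0.76 to 0.33, and at -1.18 to -3.36 in the other 5. It fell by 1.96 ± 0.31. In both genes GLY 3, 4 and 6 were the lowest and GLY 1 and 5 the highest.

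GLY 3, 4 and 6 also stood out in several genes that were called with and without GLY 1 and 3 but not in both sets. The chemokine Ccl8, which draws monocytes, stood at 0.42, 0.46, 2.33, 1.83, 1.36 and 2.95 and rose by 1.57 ± 0.34. Timp1, an inhibitor of matrix metalloproteinases, stood at 0.68, 0.42, 2.00, 1.37, 0.84 and 2.21 and rose by 1.35 ± 0.26. In Cd24a and in Dct, dopachrome tautomerase of the melanin pathway, rises of 1.29 ± 0.27 and 1.32 ± 0.20 were highest in GLY 6. Cdo1, cysteine dioxygenase, rose by 1.28 ± 0.24 and Lpar3, a receptor for lysophosphatidic acid, by 1.34 ± 0.35, and in both GLY 4 was highest. In Cdo1, however, GLY 2 at 1.41 lay above GLY 3 at 1.01. Lpar3 was not called after quantile normalization (limma, adjusted p = 0.0502). Skeletal alpha-actin (Acta1) stood at -0.60, -2.07, -2.27, -3.79, -0.86 and -2.88 and fell by 1.83 ± 0.36, with GLY 1 inside the NTG range of -0.73 to 0.17. After quantile normalization its change was -0.99 and was not called (limma, adjusted p = 0.148). The largest rise outside both sets was at 1452423_at of Pclo, a scaffold of the presynaptic zone: 2.61, 4.76, 1.72, 3.30, 3.98 and 0.64 in GLY 1 to 6, against -0.05 to 0.09 in NTG, a rise of 2.81 ± 0.38. Its order of hearts was different, with GLY 2 highest and GLY 6 lowest, and the other 2 Pclo probe sets were not called.

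Gene lists were described by their counts and medians beside the same over all 18193 genes, each taken at 1 probe set. Over all genes 243 rose and 749 fell, with a median change of 0.02 on the log2 scale; without GLY 1 and 3, 105 rose and 379 fell, with a median of -0.01. Within replicates 1-3, 200 of all genes rose and 923 fell, with a median of 0.07. Within replicates 4-6, 15 rose and 20 fell, with a median of -0.02. After quantile normalization 62 rose and 243 fell, and the falls numbered 9 in branched-chain amino acid breakdown, 8 in fatty acid oxidation, 5 in the citric acid cycle, 1 each in calcium handling and the sarcomere, and 0 in the fetal list. The members were chosen with earlier results of these data known, so a count here describes the list and is no independent evidence.

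Branched-chain amino acid breakdown had the largest share of called members. Of its 16 genes, 12 fell and 0 rose, with a median change of -0.65, and 10 fell without GLY 1 and 3, with a median of -0.40. Within replicates 1-3, 12 fell with a median of -0.69, and within 4-6, 3 fell with a median of -0.41: Ivd, Acat1 and Pccb. In 11 genes every GLY heart lay below every NTG heart, against 1.61% of all probe sets tested. The E1 and E2 subunits of the branched-chain ketoacid dehydrogenase, Bckdha and Dbt, fell by 0.86 ± 0.13 and 0.89 ± 0.17. They differed in their hearts: Bckdha was lowest in GLY 2 at -1.38, and Dbt in GLY 1 at -1.61 and GLY 3 at -1.59 against -0.39 to -0.77 elsewhere. The aminotransferase of the first step, Bcat2, fell by 0.56 ± 0.14 and was not called after quantile normalization (limma, adjusted p = 0.277). Acadsb fell by 0.73 ± 0.12, methylmalonyl-CoA mutase (Mmut) by 0.66 ± 0.13, Aldh6a1 by 0.63 ± 0.13 and Pcca by 0.43 ± 0.08. Mccc1 and Hibadh fell by 0.38 ± 0.10 and 0.44 ± 0.09 and were not called without the pair.

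**Figure D3:**
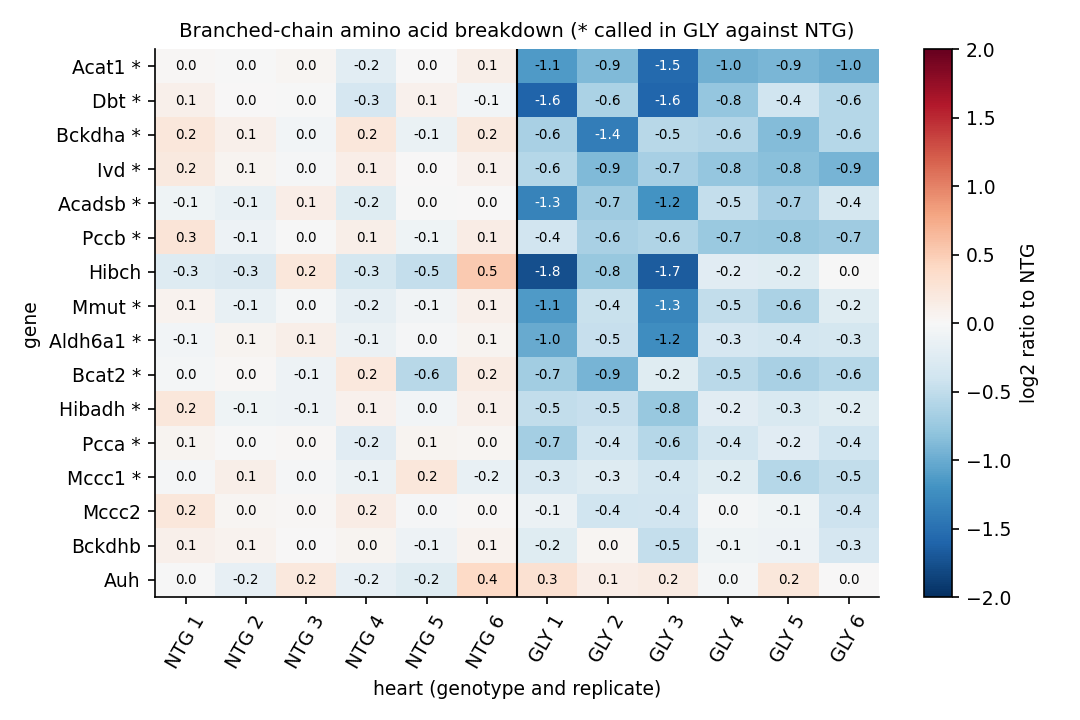
Log2 ratio to the control level of the 16 genes of branched-chain amino acid breakdown (rows, ordered by change) in the 6 NTG and 6 GLY hearts (columns); blue is below and red above the control level, and * marks the 12 genes called. Ivd, Pccb and Bckdha are low in all 6 GLY hearts, while Dbt, Acadsb, Mmut and Aldh6a1 are lowest in GLY 1 and 3.

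Fatty acid uptake and oxidation came next, with 13 of 27 genes down and 0 up (median -0.35). Without GLY 1 and 3, 10 fell (median -0.27), among them Acot1, which was not called over all hearts. Hadha and Hadhb, the subunits of the mitochondrial trifunctional protein, fell by 0.47 ± 0.08 and 0.60 ± 0.08. For Hadhb GLY 1 to 6 stood at -0.62, -0.51, -0.86, -0.49, -0.53 and -0.52 and the NTG hearts between -0.05 and 0.09, without overlap. The acyl-CoA dehydrogenases Acadvl, Acadm and Acads fell by 0.46 ± 0.07, 0.66 ± 0.13 and 0.55 ± 0.13. Acadvl was even over the 6 hearts (-0.37 to -0.58), whereas Acadm stood at -1.04 in GLY 1 and -1.36 in GLY 3 against -0.35 to -0.47 in the others. Hadh, Decr1, Echs1 and Etfdh were called with and without the pair, and Cpt2, Crat, Acadl and Etfa were not called without it.

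In the citric acid cycle and pyruvate dehydrogenase list 10 of 24 genes fell and 0 rose (median -0.24), and 4 fell without GLY 1 and 3 (median -0.18). Citrate synthase (Cs) fell by 0.66 ± 0.10 and succinyl-CoA ligase subunit Suclg2 by 0.91 ± 0.15. Pdha1, the E1 alpha subunit of pyruvate dehydrogenase, fell by 0.74 ± 0.16, with GLY 1 at -1.48 and GLY 3 at -1.49 against -0.17 to -0.69 in the others, and by 0.39 without the pair. Of complex I, 6 of 34 genes fell (median -0.02), and 4 without GLY 1 and 3. Ndufa10 fell by 0.50 ± 0.08 over all hearts and by 0.52 without the pair, whereas Ndufs1 went from a fall of 0.65 ± 0.13 to 0.37. Of complexes III and IV and the ATP synthase, 1 of 22 rose, Cox6a1, and 1 fell, Cox6c, neither called without the pair. Cox6a1 was called at 1 of its 2 probe sets. Ndufab1 fell by 1.59 ± 0.20 at 1435934_at, but its other 4 probe sets were not called.

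Counts in the other energy lists stand beside the 243 rises and 749 falls among all 18193 genes. In glucose uptake and glycolysis 1 of 17 genes fell, hexokinase 2 (Hk2), by 0.32 ± 0.08. In the list of PPAR and ERR receptors and their coactivators 1 of 15 fell, Gabpa, a subunit of nuclear respiratory factor 2. Neither was called without GLY 1 and 3. Of mitochondrial ribosome and import genes 4 of 27 fell, and 1, Ghitm, without the pair.

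In the beta-adrenergic and cAMP list, 4 of 42 genes rose and 2 fell (median -0.03). The 4 that rose damp receptor or cAMP signalling, and all 4 were called without GLY 1 and 3. The 2 that fell damp cAMP signalling as well, and how many of the 42 genes do so was not counted. Within replicates 1-3 none of the 42 rose and 2 fell, within 4-6 Grk5 and Pde4d rose, and the same 2 were the ones called after quantile normalization. These counts take Grk5 at 1436672_at, and its probe set called in both sets is 1449514_at. Beside Grk5, the genes that rose over all hearts were the phosphodiesterases Pde4d and Pde4b and the G protein regulator Rgs2. Pde4d stood at 0.21, 0.67, 0.66, 1.02, 0.75 and 0.45 in GLY 1 to 6 and between -0.16 and 0.20 in NTG, with GLY 1 only just above the highest NTG heart. It rose by 0.61 ± 0.10. Rgs2 stood at 0.35, 0.59, 0.52, 1.26, 0.53 and 1.03, with NTG between -0.37 and 0.27, and rose by 0.74 ± 0.15. Pde4b rose by 0.44 ± 0.10. The 2 that fell, the protein kinase A inhibitor Pkia and the inhibitory G protein subunit Gnai3, were not called without the pair. Adenylyl cyclase 5 (Adcy5) changed by -0.13 ± 0.09 and was not called (adjusted p = 0.507). Of 22 immediate early and CREB target genes 0 were called (limma; 5 at an unadjusted p under 0.05; median 0.11).

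Of 26 calcium handling genes 4 fell and 0 rose (median -0.10), and 1 without GLY 1 and 3, Cacna2d1. Phospholamban (Pln), the brake on the calcium pump of the sarcoplasmic reticulum, stood at -0.69 in GLY 1 and -0.72 in GLY 3 and at -0.19 to -0.04 in the others. Its change of -0.32 ± 0.10 was not called (adjusted p = 0.0607), and without the pair it was -0.12 (adjusted p = 0.485). Among 21 genes of ion channels and gap junctions 3 fell. Kcnip2, the subunit of the transient outward potassium current, fell by 0.53 ± 0.09 with all GLY hearts below all NTG hearts, and by 0.61 without the pair. Kcnd3, the pore of that current, and Abcc9 were not called without it.

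Of 29 sarcomere and Z disc genes 6 fell (median -0.10), and 5 without the pair, of which Tcap was not called over all hearts. The 6 were Acta1, Ttn, Nexn, Tmod4, Mylk3 and Mylk4, and Ttn and Mylk3 were not called without GLY 1 and 3. In the list of fetal and hypertrophy genes 2 of 22 rose and 4 fell. The 2 that rose were Fhl1, by 0.67 ± 0.15, and Uchl1, by 1.02 ± 0.29. Without the pair the Uchl1 change was 1.00, of like size, and was not called (limma, adjusted p = 0.069). Neither myosin heavy chain was called over all hearts. Alpha-myosin heavy chain (Myh6), whose promoter drives the transgene, changed by -0.34 ± 0.20 (adjusted p = 0.382). Beta-myosin heavy chain (Myh7) stood at -0.28, -0.58, 0.21, -0.92, -0.90 and -0.49 in GLY 1 to 6 and between -0.13 and 0.55 in NTG. Its change was -0.61 ± 0.19 over all hearts (adjusted p = 0.062) and -0.84 ± 0.19 without GLY 1 and 3 (adjusted p = 0.0142). Atrial natriuretic peptide (Nppa) ran from -0.92 in GLY 2 to 1.02 in GLY 6, a change of 0.04 ± 0.30 (adjusted p = 0.963).

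Of 32 chemokine and inflammation genes 5 rose and 1 fell (median 0.09). Without the pair 3 rose, Ccl8, Lgals3 and Cd44. Of 39 collagen and matrix genes 1 rose, Timp1, and 2 fell, Timp4 and Adamts1, of which Timp4 was not called without the pair (-0.92 with it and -0.85 without it). Among 24 antioxidant and metallothionein genes 3 rose, Mt2, Gclm and Gstm1, of which Gclm was called without the pair. Mt2 changed by 0.98 with the pair and 0.96 without it, where it was not called (limma, adjusted p = 0.059). In the clock list the repressor Nfil3 rose and Tef and Nr1d2 fell, 3 of 17, of which Nr1d2 was not called without the pair. Among 21 heat shock genes 5 fell (median -0.23), 3 without the pair: Trap1 and the mitochondrial chaperones Hspd1 and Hspa9, which fell by 0.93 ± 0.15 and 0.67 ± 0.12. Of the 16 growth arrest genes 2 fell, Gadd45a and Gadd45g, of which Gadd45g was called without the pair. Of 22 genes of endoplasmic reticulum folding and stress 1 fell, Ddit3, also without the pair. Timp4 and Ddit3 were each called at 1 of 2 probe sets over all hearts. Of 12 ubiquitin ligase and atrophy genes 1 rose, Uchl1. The 18 serine, asparagine and ATF4 genes and the 15 interferon-induced genes held 0 calls (limma; 2 and 3 at an unadjusted p under 0.05), with medians of 0.20 and 0.07. Shmt2, of the ATF4 list, was called without the pair, at -0.34.

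**Figure D4:**
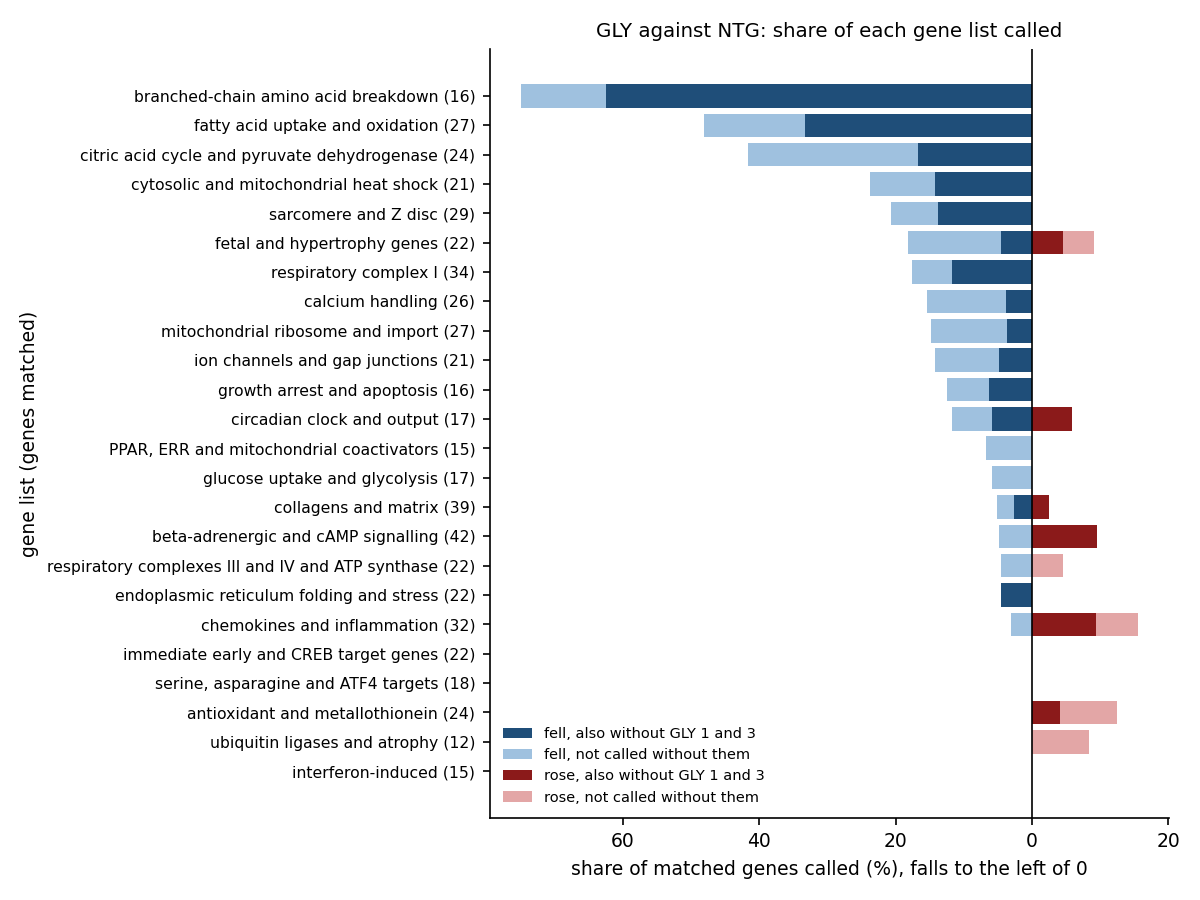
Share of the matched genes of each list that fell (left of 0) or rose (right of 0) in GLY against NTG, with the number matched in brackets; dark bars were also called without GLY 1 and 3 and pale bars were not. Amino acid breakdown and fatty acid oxidation keep most of their falls. The citric acid cycle, calcium handling and fetal lists lose most of theirs, as do falls over all probe sets, of which 638 of 1590 held. The citric acid cycle keeps 4 of 10, and the calcium handling and fetal lists hold 4 falls each.

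Markers of other cell types were read beside these lists, and in bulk tissue fewer cells of a type and less RNA per cell cannot be told apart. None of 10 fibroblast markers was called, nor of 8 smooth muscle, 7 lymphocyte, 6 adipocyte, 9 skeletal muscle, 7 atrial, 3 red blood cell or 5 nerve markers (limma; 8 of these 55 at an unadjusted p under 0.05). Of 10 endothelial markers Fabp4 and Egfl7 fell, and of 12 macrophage markers Cd163 fell and 0 rose, with a median change of 0.06 over the 12. Fabp4 was called without GLY 1 and 3, and Egfl7 and Cd163 were not. Over all hearts Fabp4 was called at 2 of its 4 probe sets. By heart the macrophage median was -0.10, -0.43, 0.32, 0.11, 0.03 and 0.58 in GLY 1 to 6, and between -0.16 and 0.11 in NTG. The part of macrophages in the rises of Lgals3 and Ccl8 was not tested. Dct was the 1 of 7 melanocyte markers and Krt18 the 1 of 7 epicardial markers that rose. Skeletal muscle markers had a median change of 0.05, beside the fall of Acta1. Of 4 sex-linked genes 0 were called (limma; 3 at an unadjusted p under 0.05), and Eif2s3y stood at -2.40 in GLY 1 and -2.25 in GLY 3 against -0.78 to 0.03 in the others, while Xist lay between -0.36 and 0.04 in all 6.

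Falls outnumbered rises both among the calls that depended on GLY 1 and 3 and among those that held without them. Of the 1395 probe sets not called without the pair, 952 fell (2.11% of all tested) and 443 rose (0.984%). Of the 891 that held, 638 fell (1.42%) and 253 rose (0.562%). In the 952, GLY 1 was the lowest GLY heart in 45.5% and GLY 3 in 41.8%. In the 443, GLY 3 was the highest in 60.7%. These shares are set in part by the choice of probe sets that lose their call without the pair, and support nothing. The loss of a call did not always mean that the other 4 hearts were unchanged. The change without the pair was a median 0.71 of the full change. In 164 it was under 0.5 of the full change, and in 265 it was at least 0.9.

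Genes of this kind came from several pathways. Angiopoietin 1 (Angpt1), a vessel-stabilising ligand, stood at -2.12 in GLY 1 and -2.76 in GLY 3, and at -0.45 to -1.08 in the other 4. It fell by 1.28 ± 0.28 (adjusted p = 0.0082) and changed by -0.71 without the pair (adjusted p = 0.0532). Pkia stood at -1.69, -1.01, -2.28, -0.50, -0.40 and -0.29, fell by 1.02 ± 0.26 and changed by -0.54 without the pair (adjusted p = 0.189). Dihydrolipoamide dehydrogenase (Dld), the E3 subunit shared by the ketoacid dehydrogenases, stood at -1.77 and -1.84 in the pair and at -0.06 to -0.56 in the others. Its fall was 0.76 ± 0.22, and without the pair the change was -0.27 (adjusted p = 0.281). The calcium and calmodulin-dependent kinase Camk2d fell by 0.58 ± 0.13, with -1.10 and -1.21 in the pair and -0.27 to -0.42 elsewhere. Gabpa fell by 0.77 ± 0.19, Mef2a and Mef2c, transcription factors of muscle, by 0.58 ± 0.15 and 0.52 ± 0.14, and Nr1d2 by 0.60 ± 0.17. In each of these 4 genes GLY 1 and 3 were the 2 lowest hearts. Fkbp3, Slf1 and Chpt1 at 1455901_at fell by 1.14 ± 0.26, 1.11 ± 0.25 and 1.25 ± 0.30 with the same 2 hearts lowest. Another Chpt1 probe set, 1435870_at, fell by 1.33 ± 0.28 and was still called without the pair, at -0.83 (limma, adjusted p = 0.0423), and its other 2 changed by -0.07 and 0.06. After quantile normalization Pkia, Gabpa, Nr1d2 and Slf1 at these probe sets were not called. Gabpa, Nr1d2 and Slf1 were each called at 1 of 2 probe sets over all hearts.

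Splicing and RNA-binding genes were grouped after their values were seen, so they get no test. Of 19 Hnrnp genes 9 fell (median -0.36), and 5 without GLY 1 and 3 (median -0.17). The median was -0.54 within replicates 1-3 and -0.07 within 4-6. Hnrnpa2b1 fell at all 4 of its probe sets. At 1433830_at GLY 1 to 6 stood at -3.28, -1.87, -2.49, -1.40, -1.76 and -0.68, and the NTG hearts between -0.61 and 0.20. It fell by 1.76 ± 0.27, and by 1.28 without the pair. Of 10 Srsf genes 2 fell and of 12 Prpf genes 3, and 0 of either without the pair. Srsf1 stood at -1.75 and -1.98 in the pair and -0.13 to -0.66 in the others. Neat1, a nuclear long noncoding RNA, fell by 2.04 ± 0.31 at 1428083_at and ranged from -3.98 in GLY 1 to -1.38 in GLY 6. Its NTG 4 heart stood at -1.60, and its other probe set, 1442881_at, changed by 0.09 and was not called.

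**Figure D5:**
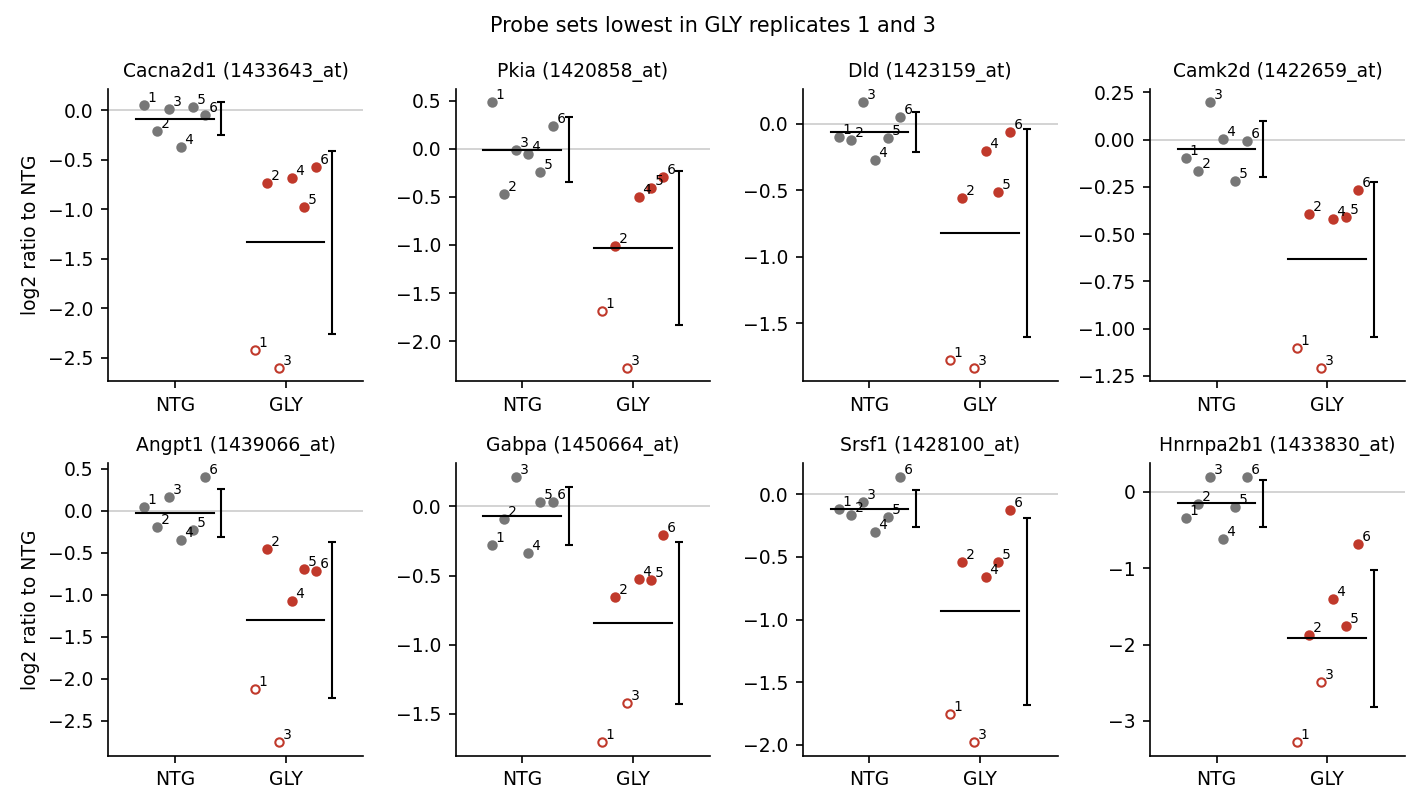
Log2 ratio to the control level in each NTG heart (grey) and GLY heart (red, with GLY 1 and 3 as open circles) for 8 probe sets; numbers are replicates, the horizontal line is the group mean and the bar 1 SD (n = 6). The 8 were picked after their values were seen, as probe sets lowest in GLY 1 and 3. That the open circles are the 2 lowest GLY hearts in all 8 is set by this choice and supports nothing. In Pkia, Dld, Gabpa and Srsf1 at least 1 of the other 4 lies within the NTG range.

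Several genes were lower in GLY 1 and 3 yet called without them. Cacna2d1, the alpha2-delta subunit of the L-type calcium channel, stood at -2.42 and -2.60 in the pair and at -0.57 to -0.98 in the others, all below the NTG range of -0.37 to 0.05. It fell by 1.24 ± 0.26, and by 0.65 without the pair (adjusted p = 0.0105). Its other 4 probe sets were not called. Nexn, an actin-binding protein of the Z disc, fell by 1.12 ± 0.22 and by 0.67 without the pair. Ghitm, an inner membrane protein of mitochondria, went from a fall of 1.28 ± 0.22 to 0.86. Mtm1 fell by 1.81 ± 0.23 at 1434278_at, where all GLY hearts lay below all NTG hearts, and by 1.45 without the pair. For these genes the direction holds without GLY 1 and 3 and the size depends on them.

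Array features were read beside the calls that depended on the pair. Over the 952 falls that were not called without it, NTG 4 was the lowest NTG heart in 44.6%, against 19.9% over all probe sets, and over the 638 falls that held it was in 35.6%. The genes of the 952 had a median span of 35.8 kb, against 20.2 kb for all genes and 26.8 kb for the falls that held. The Affymetrix control for transferrin receptor had a 3' minus 5' log2 value of -0.83 in GLY 1 and -0.48 in GLY 3, against -0.31 to -0.18 in the other GLY hearts and -0.23 to 0.25 in NTG. For Gapdh the same value ran from -0.01 to 0.16 in GLY and from -0.09 to 0.04 in NTG. Beta-actin had GLY 1 lowest of the GLY hearts, at 0.04, and GLY 3 highest, at 0.16. For pyruvate carboxylase GLY 6, at -0.32, lay below GLY 3 and GLY 1, at -0.18 and -0.17. Of the 4 controls, transferrin receptor was the one in which the pair had the 2 lowest values. The part of RNA quality in these falls was not tested.

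The difference from the other receptor form was tested directly, over all 6 GLY hearts only. GLY and ARG differed at 678 probe sets (1.51%), 321 higher (0.713%) and 357 lower (0.793%) in GLY; after quantile normalization 58 differed. Of the 39 probe sets called in both sets, 6 differed from ARG. Cd44 was lower in GLY than in ARG by 1.27 (adjusted p = 0.00263), Lgals3 by 1.26 (adjusted p = 0.00947) and Grk5 at 1449514_at by 0.54 (adjusted p = 0.0179). Mrps25 was higher in GLY than in ARG by 0.44 (adjusted p = 0.0123), and 1444693_at and 1435605_at were the other two. Ccl8 and Cd24a were lower in GLY than in ARG by 1.89 and 1.48, and Myh7 by 1.03 (adjusted p = 0.00436). Pclo was higher in GLY than in ARG by 2.66 (adjusted p = 0.000433) and than in AC5 by 2.70 (adjusted p = 0.000302). None of the 16 genes of branched-chain amino acid breakdown was called between GLY and ARG (limma; 4 at an unadjusted p under 0.05), and 1, Acat1, between GLY and AC5, at the 1 probe set per gene of the list; Ivd, at its other probe set 1449001_at, was also called against AC5. Beside the GLY median of -0.65 in that list, the median change against the same NTG hearts was -0.70 in ARG and -0.31 in AC5. For Ivd at 1449001_at the GLY minus ARG difference was 0.43 (adjusted p = 0.0732), for Abat -0.07 (adjusted p = 0.804) and for Acat1 0.16 (adjusted p = 0.546). Against AC5, where 312 probe sets differed (0.693%), 25 of the 39 did, among them Ivd, Abat, Acat1, Gnb3 and Grk5. The 39 were chosen by their calls in these same GLY hearts. Their counts against ARG and AC5 are therefore set in part by that choice, and support nothing.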

How the data were processed

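Total RNA was extracted from hearts and labelled cRNA was hybridised to Affymetrix arrays, 1 per replicate, per the labels' protocols. The submitters' processing notes name RMA, without a version. The authors deposited linear ratios, whose division by the control level was read from the values. Of 45101 probe sets, 64 Affymetrix controls were left out. Ratios hold no brightness, so no filter on dim probe sets was possible, and the number of arrays limits the precision. A model of log2 ratios with a mean for each genotype was fitted over 24 arrays (R 4.3.3, limma 3.58.1), and p-values were adjusted (Benjamini-Hochberg) over 45037 probe sets. The mean SD between replicates was 0.143 in NTG and 0.221 in GLY, although a probe set had a single spread estimate for all 4 genotypes. Each set of replicates was fitted on its own 12 arrays, and the fit without GLY 1 and 3 on the other 22 arrays. Errors of changes are SE of the fit.

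Probe sets with 1 symbol numbered 34945 (18193 genes, 18032 updated through Entrez identifiers), with several 932 and with none 9160. For lists each gene was taken at 1 probe set chosen without its values (suffix, then lowest number). Of 701 list genes in 24 lists and 14 marker sets, 639 matched. The comparison, rules, lists and markers were chosen with earlier results of these data known. Genes were named as the 12 largest rises and falls called with and without GLY 1 and 3, the 8 largest of each called in both sets, the 6 largest of each not called without the pair, the most changed called member of each list, and Adcy5, Myh6, Myh7, Nppa and Pln. Not every gene of this rule is reported here. Other members of the 39 shared probe sets and of lists were named after their values were seen. Alternatives were the 12 GLY and NTG arrays alone, the set as a term, quantile normalization, median centring, array weights, a robust prior, a replicate block and leaving out each heart. The code was tested on simulated data. Plots were drawn with matplotlib 3.10.9 and tables made with pandas 2.3.3 and numpy 2.4.6 under Python 3.11.15.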

Additional observations from a re-analysis of the deposited data

Results flagged for a closer look

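A single heart stood apart from the other 5 of its group in 13 of 220 groups of 6 hearts looked at (5.9%), by the gap to its nearest neighbour over the range of the group; about 1 in 20 such groups is picked by chance. Among genes these were Neat1 at 1428083_at in NTG 4, at -1.60, Grk5 at 1449514_at in NTG 5, at -0.23, Timp4 in NTG 5, at -0.58, and Gadd45g in NTG 5, at -0.45. In GLY hearts they were Ms4a7 in GLY 6, at 1.33, Hspa1b in GLY 4, at -2.64, and Cox6a1 in GLY 3, at 0.92. Among medians of gene lists, NTG 4 stood apart for respiratory complexes III and IV and ATP synthase, at -0.061, and for mitochondrial ribosome and import, at -0.097. NTG 2 stood apart for the interferon-induced list, at -0.16, and for lymphocyte markers, at -0.085. GLY 3 stood apart for the clock list, at 0.20, and GLY 4 for atrial markers, at 0.52.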

How the results depend on the processing

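The count of 2286 moved to 1247 on the 12 GLY and NTG arrays alone, to 633 after quantile normalization (627 of them called the same way in the 2286), to 1131 with no GLY 1 and 3, to 1074 at 1 probe set per gene and to 679 at a change of at least 1.5-fold. Leaving out 1 heart gave 1337 (without GLY 3) to 3961 (without GLY 6), and 1355 without NTG 3. Replicates 1-3 gave 32 calls after quantile normalization, 4772 with 8 means over all arrays and 255 on GLY and NTG alone. Without 1 heart they gave 317 (without NTG 3) to 7421 (without GLY 2). Replicates 4-6 gave 71, 160 and 25 in these 3 fits, and 8 (without GLY 4) to 167 (without GLY 5) without 1 heart. The 39 shared calls became 6 after quantile normalization, 91 with 8 means and 8 on GLY and NTG alone. These 3 alternatives were chosen after seeing the data, as were 2 for the fit without the pair (1246 with the set as a term, 1264 on GLY and NTG alone). Quantile normalization gave 620 without the pair and 58 for GLY against ARG, and the difference between sets had 27 calls without GLY 1 and 3, where GLY 2 is the single GLY heart of replicates 1-3 and is assumed to vary like the other groups. The share of rises among calls was 30.5%, and 21.98% after median centring. Nppa, not called, ran from -0.16 (without GLY 6) to 0.23 (without GLY 2) when 1 heart was left out and was below 0 also without GLY 3, GLY 4, NTG 1 or NTG 5. The cause of these shifts was not tested. Of the 72 named probe sets, 23 were no longer called with no GLY 1 and 3, 20 after quantile normalization, 15 on the 12 arrays alone, and 2 to 13 with any 1 heart left out.

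Replicate numbers did not pair the hearts: deviations of GLY and NTG hearts of the same number correlated between -0.29 and 0.14, and 0 of 6 GLY hearts correlated best with their own number. With the replicate block the count was 2574, and no named probe set changed its call. Signal over background is unknown, since the values are ratios.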
